A study of Mus musculus with 8 samples.

Results

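MYC is a transcription factor that drives growth and division, and it acts only as a dimer with MAX. The genes described here are the 10 of the MYC, MAX and antagonist network, taken by symbol from a count table of 24259 genes: Myc, its partner Max, the MAX-binding repressors Mxd1, Mxi1, Mxd3, Mxd4, Mnt and Mga, the parallel partner Mlx, and Tfap4, a MYC target. All 10 were in the table, and all 10 were among the 12744 genes with enough counts to be tested. The network was read in mouse B cells that bound the hapten NP, carried little IgD and were B220-positive, sorted from lymph nodes on day 3 after immunization with NP-OVA, while they were developing toward germinal centers.

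The study asked whether B cells are helped less well when the helper T cells have a single intact copy of Bcl6. In the HET group (4 libraries), the OT-II T cells that gave help carried Cd4-cre and 1 floxed Bcl6 allele. In the WT group (4 libraries), they carried Cd4-cre alone. In both groups the T cells had been transferred into C57BL/6-strain recipients that were Sap-/-, whose own T cells were present but cannot sustain germinal centers, and antigen was given with LPS in alum. Cd4-cre acts throughout the T cell lineage of the donor, so the allele was lost before the cells were transferred, and the sequenced B cells kept both copies of Bcl6. Recipients of a group were pooled before sorting, and each library was made from about 200 cells of that pool. Differences among the 4 libraries of a group thus arise in sorting and library preparation, and p-values measure only these. The effect of the group cannot be told apart from that of its pool.

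In resting B cells Myc is low. Antigen and T cell help induce it for a short time, and this marks the cells that enter the germinal center reaction. MAX is the shared partner. MYC-MAX dimers bind the E-box CACGTG and raise transcription of genes for growth, whereas MXD proteins, MNT and MGA compete for MAX at the same sites and recruit repressors. MLX serves as the partner of MondoA and ChREBP, which sense nutrients, and also dimerizes with some MXD proteins and MNT. TFAP4 (AP4) is induced by MYC and prolongs the growth of activated lymphocytes.

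This E-box is the letter string bound by MYC-MAX dimers and by the repressors that compete for MAX. Its occurrence in the members' own promoters is therefore shown first. In RefSeq promoters on GRCm38.p6 (250 bases before to 50 bases after each annotated start), 8 of the 10 members were matched, all but Myc and Tfap4. CACGTG, which reads the same on both strands, occurred in 4 of the 8, those of Max, Mlx, Mnt and Mxd4. The same letters were in 7.15% of all 32851 promoters of that table, and 12.2% of the 8927 tested genes with a promoter had one. The windows of 30 bases around these matches, 5′ to 3′ on the strand of the gene with the E-box in capitals, were as follows.
Max: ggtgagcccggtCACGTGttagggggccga
Mlx: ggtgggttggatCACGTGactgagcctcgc
Mnt: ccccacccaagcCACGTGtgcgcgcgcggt
Mxd4: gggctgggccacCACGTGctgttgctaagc
The Max window lies at chr12:76962234-76962263 on the minus strand, the Mlx window at chr11:101087238-101087267 on the plus strand, the Mnt window at chr11:74830789-74830818 on the plus strand and the Mxd4 window at chr5:34187912-34187941 on the minus strand. The E-box began 3 bases before the annotated start in Max, 40 bases before it in Mlx, 123 bases before it in Mnt and 219 bases before it in Mxd4. A match is a description of the sequence and not evidence of binding in these cells.

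Total counts were 6652386 to 12559189 per library. HET replicate 1, the deepest library, also had the highest summed CPM of 10 markers of antibody-secreting cells (2326, with 439 to 774 in HET replicates 2 to 4 and 447 to 718 in WT). Most of that sum was Jchain alone, at 1576 CPM. The label of B cells fitted the libraries, since Cd79a was at 3209 to 3999 CPM in all 8. The 8 B cell markers, all tested, were lower in HET (summed CPM 10529 to 11719, against 12281 to 13312 in WT), 7 of the 8 at an unadjusted p under 0.05 in edgeR, a limit that 3.88% of all tested genes met in that direction. None of the 8 passed the adjusted threshold in edgeR, and 1, Cd22, passed in DESeq2 (adjusted p = 0.0159). All 14 tested T cell markers of 15 listed were higher in HET (median log2 fold change 0.56), 0 of them at an unadjusted p under 0.05 in edgeR and 0 called in DESeq2. They summed to 397 to 704 CPM in HET and 228 to 559 CPM in WT, with Cd4 at 0 in 5 of 8 libraries and Cd8b1 at 12.2 to 123 CPM. Myeloid markers (6 of 12 tested) summed to 245 to 325 CPM in HET and 253 to 658 CPM in WT, the highest being WT replicate 2 with 399 CPM of Lyz2 in a single library. Fewer cells of a type and less RNA per cell cannot be told apart in such libraries. The part of these differences in the results below was not tested.

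Myc dominated the network in every library. Levels were compared between genes as CPM (counts scaled to a common library total, after TMM scaling of library sizes) per kb of exon, with all annotated exons of a gene merged. Myc stood at 79.5 ± 17.9 CPM per kb (SD, n = 8) over all libraries and took 35.5% to 65.3% of the members' summed level. Mlx came next with 27.2 ± 4.68 CPM per kb (SD, n = 8), and its highest library (34.4) lay below the lowest of Myc (43.9). Mxd3 followed with 15.2 ± 3.73 CPM per kb (SD, n = 8), again without overlap, since the lowest Mlx value was 20.9 and the highest Mxd3 value 19.6. Below these, neighbours in the order overlapped in range at every step, namely Max (11.7 ± 2.78, SD, n = 8), Mxd4 (6.86 ± 1.89, SD, n = 8), Mga (3.59 ± 0.819, SD, n = 8), Mnt (2.58 ± 0.938, SD, n = 8), Tfap4 (2.14 ± 0.958, SD, n = 8), Mxd1 (1.64 ± 0.814, SD, n = 8) and Mxi1 (0.740 ± 0.381, SD, n = 8), all in CPM per kb. Mxd4 was nevertheless above Mga in 8 of 8 libraries, and Max was above Mxd4 in 7 of 8. By mean level, the order from Mxd3 to Mxd4 depended on the gene length used. With the longest annotated transcript in place of merged exons, Max (21.6 CPM per kb) was above Mxd3 (20.7 CPM per kb), and in the authors' TPM, Mxd4 (22.6) was above Max (8.90). Mxd1 was above Tfap4 under both, with 2.48 against 2.42 CPM per kb of the longest transcript and 2.44 against 1.52 TPM. The TPM were not used as the measure per exon length, because the length they imply followed the whole gene span with introns (Spearman rho 0.961 across 11678 genes, which are not independent) more closely than the merged exon length (rho 0.644).

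**Figure D1:**
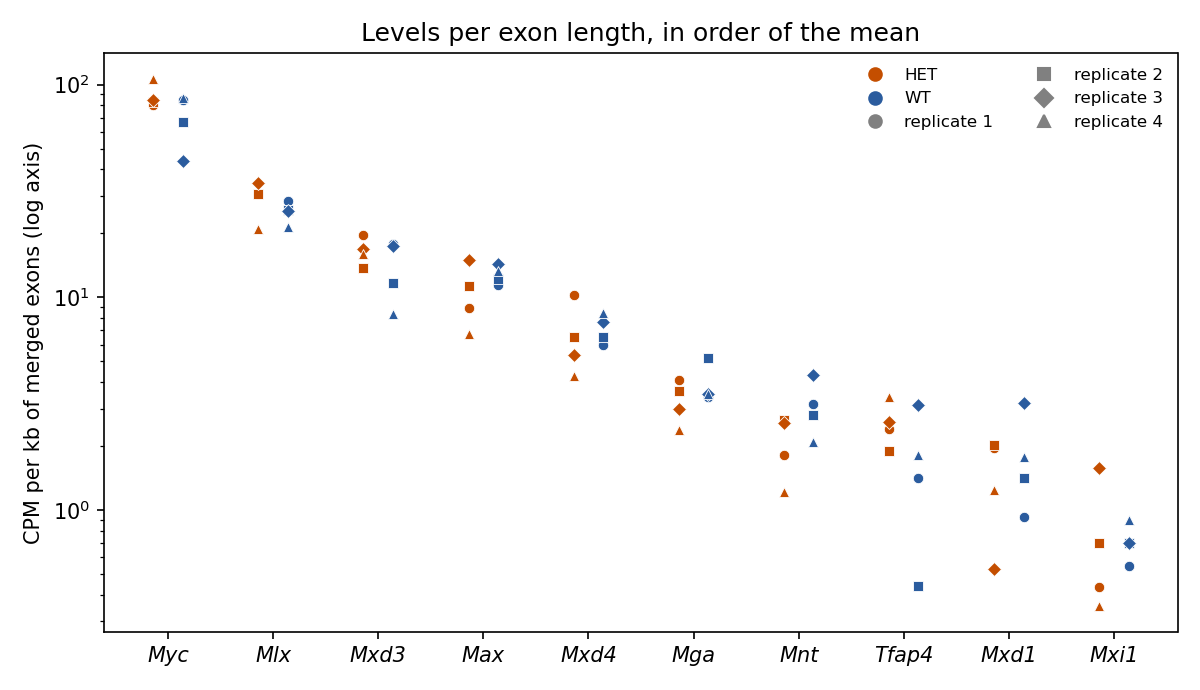
Level of each network gene in CPM per kb of merged exons (vertical axis, log scale), in the order of the mean over 8 libraries, with 1 point per library, HET in orange and WT in blue and a marker shape for each replicate. Myc lies between 43.9 and 106 CPM per kb, above every other member in all libraries, and Mxi1 is last at 0.356 to 1.58 CPM per kb.

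Among the repressors, Mxd3 and Mxd4 carried most of the transcript. Their sum was 69.1% to 79.6% of the level per kb of the 6 repressors in HET and 64.3% to 74.7% in WT. Mxd3 alone was 59.8% to 73.3% of the 4 MXD genes in HET and 42.9% to 70.6% in WT, where WT replicate 4 was lowest and held Mxd3 and Mxd4 at a ratio of 0.989. In the other 7 libraries Mxd3 exceeded Mxd4 by a factor of 1.79 to 3.78. By merged exon length, Myc exceeded the 6 repressors together in all 8 libraries. The mean ratio was 2.98 in HET (SD 0.854, n = 4) and 2.42 in WT (SD 0.939, n = 4). The ranges overlapped, with 2.11 to 4.16 in HET and 1.19 to 3.45 in WT, and the difference of 0.567 between the means fell to 0.176 without HET replicate 4 and to 0.158 without WT replicate 3. Max, the shared partner of MYC and these repressors, was below Myc in every library: Myc over Max was 5.64 to 15.8 in HET and 3.07 to 7.36 in WT. The 6 repressors together were 1.99 to 4.29 times the level of Max in HET and 1.87 to 2.76 times in WT. The ratios to Max moved most with the gene length used. From the means over 8 libraries, Myc over Max was 6.81 with merged exons, 4.27 with the longest transcript and 19.2 in the authors' TPM, and the 6 repressors over Max were at 2.62, 2.003 and 6.92 in the same order. Mxd3 over Mxd4 was 2.22, 1.64 and 1.14, and Myc over the 6 repressors was 2.60, 2.13 and 2.77, all from these means. The ratios of single libraries above hold for merged exons only. With the longest transcript, Myc was not above the 6 repressors together in WT replicate 3. These lengths were tried after seeing the data. The ratios compare transcripts and not proteins, and they carry no test, since they are sums over chosen genes.

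No member of the network passed the test between B cells helped by HET and by WT T cells. In edgeR's quasi-likelihood test, 0 of 10 members passed an adjusted p of 0.05, 0 of 10 had an unadjusted p under 0.05, and DESeq2 also called 0 of 10. Of all tested genes, 0.0235% passed the adjusted threshold in edgeR, 7.22% had an unadjusted p under 0.05, and 0.687% of 13834 genes passed in DESeq2. At such shares a list of 10 genes would hold few calls or none, so the count of 0 does not set the members apart. There were 5 members higher and 5 lower in HET, with a median log2 fold change of -0.0013, against -0.0014 over all tested genes. The groups overlapped for all 10 members. They did not overlap for 4.61% of all tested genes, a share at which 10 genes would hold few such cases or none. Adjusted p-values of members ranged from 0.740 to 0.980 in edgeR and from 0.631 to 0.984 in DESeq2. A p above the threshold does not show that levels were equal, so each difference is given below with its 95% interval.

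**Figure D2:**
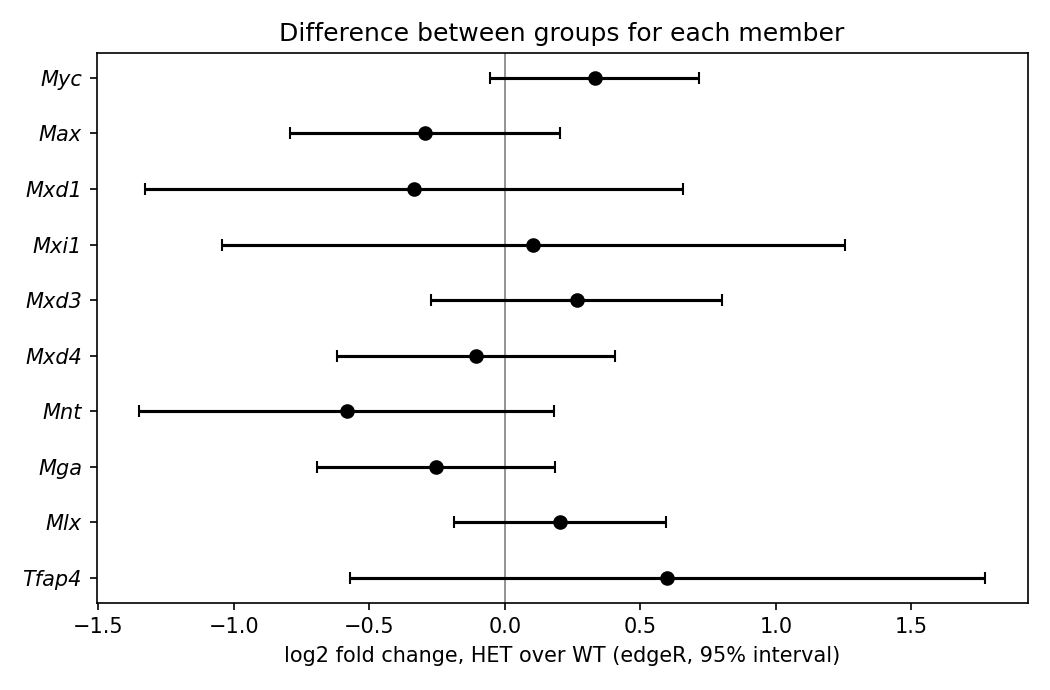
Log2 fold change of HET over WT for the 10 members (points) with 95% intervals from edgeR (bars), 4 libraries per group. All intervals include 0, and they are narrowest for Myc (-0.06 to 0.72) and Mlx (-0.19 to 0.59) and widest for Tfap4 (-0.57 to 1.77) and Mxi1 (-1.04 to 1.25).

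Myc itself (chromosome 15, 61985391 to 61990374 on GRCm38, plus strand) had the lowest p of the 10. It was at 219, 226, 230 and 288 CPM in HET replicates 1 to 4 and at 230, 181, 119 and 235 CPM in WT replicates 1 to 4. HET libraries lay together except for replicate 4, which was higher than every other library, and 2 WT libraries lay below every HET library, while the other 2 fell inside the HET range. HET averaged 241 CPM (SD 32.0, n = 4) and WT 191 CPM (SD 53.7, n = 4). The log2 fold change was 0.33 (standard error 0.18, unadjusted p = 0.0880 and adjusted p = 0.740 by edgeR). The 95% interval ran from 0.962-fold to 1.64-fold. It covers only the scatter among libraries of 1 pool per group. The difference shrank to a log2 fold change of 0.17 without WT replicate 3 and 0.24 without HET replicate 4, and its sign was positive in all 18 alternative settings. Myc was above 95.1% of tested genes by CPM, and counts per library were 945 to 2720.

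**Figure D3:**
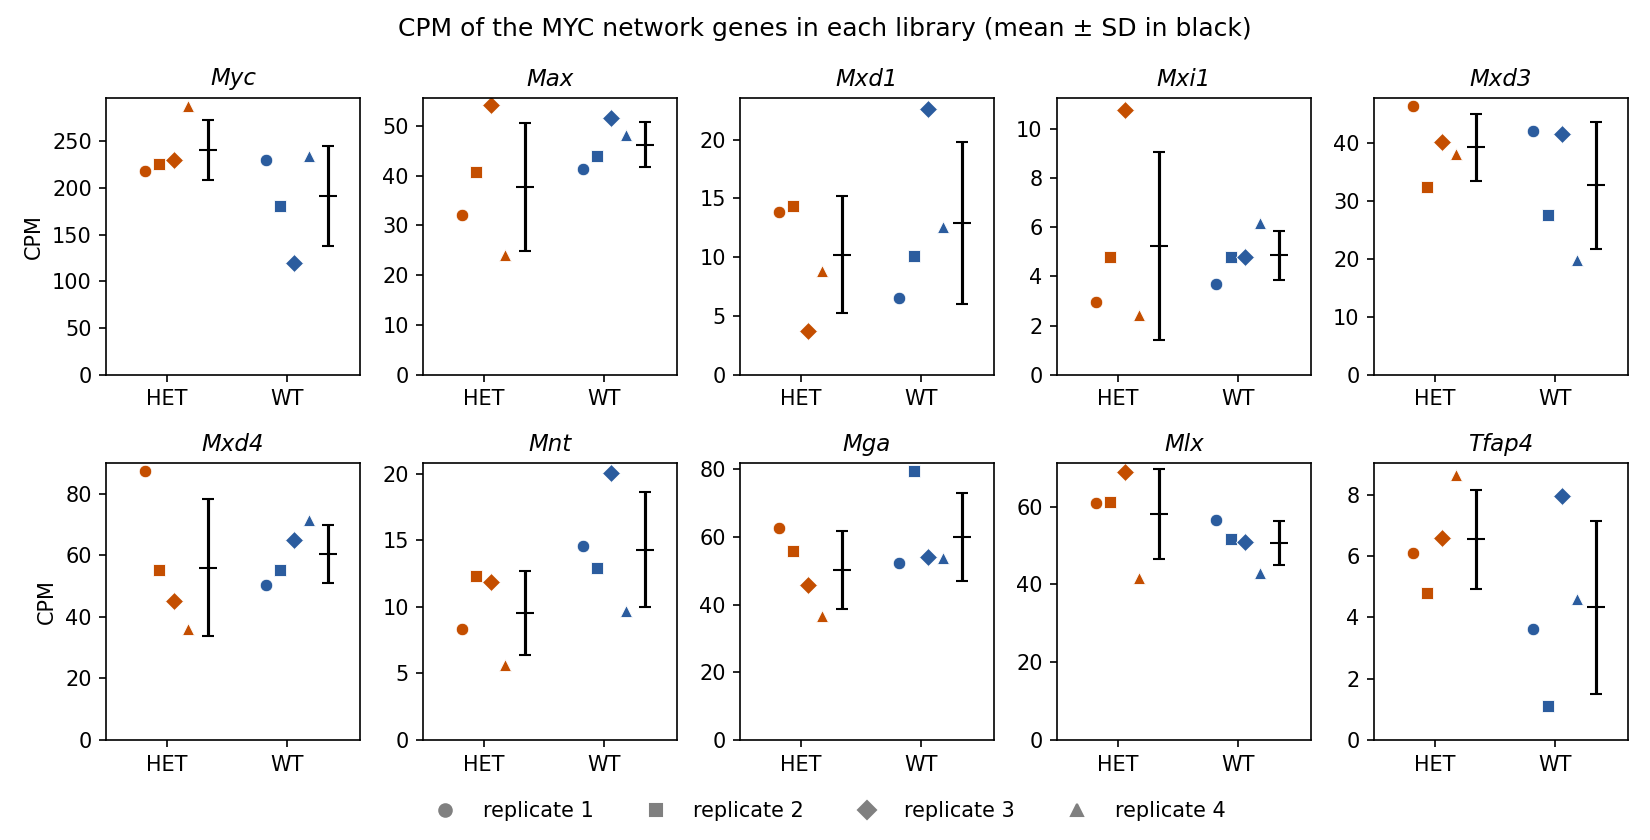
CPM of each member in the 4 HET libraries (orange) and the 4 WT libraries (blue), with a marker shape for each replicate and the mean ± SD of each group in black; each panel has its own vertical axis from 0. HET and WT points overlap in all 10 panels, and HET replicate 4 is the highest point for Myc and Tfap4 and the lowest for Max, Mxi1, Mxd4, Mnt, Mga and Mlx.

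Max (chromosome 12, 76937269 to 76962201, minus strand), the partner of MYC and of its repressors, leaned the other way. It was at 32.0, 40.7, 54.1 and 24.1 CPM in HET and at 41.3, 43.99, 51.5 and 48.1 CPM in WT. The WT libraries were tight, and 3 HET libraries lay below all of them while HET replicate 3 lay above. The log2 fold change was -0.29 (standard error 0.23, adjusted p = 0.840 by edgeR, interval 0.577-fold to 1.15-fold). It was -0.52 without HET replicate 3 (edgeR unadjusted p = 0.0373, adjusted p = 0.787, in a range of adjusted p from 0.787 to 0.964 when each library was left out) and -0.13 without HET replicate 4.

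The MXD repressors split by abundance. Mxd3 (chromosome 13, 55325168 to 55329823), the MXD member typical of dividing cells, was at 46.5, 32.5, 40.2 and 38.1 CPM in HET and at 42.1, 27.6, 41.5 and 19.7 CPM in WT. Only WT replicates 2 and 4 fell below the HET range, and the log2 fold change was 0.26 (standard error 0.25, adjusted p = 0.873 by edgeR, interval 0.828-fold to 1.74-fold). Without WT replicate 4, the log2 fold change of Mxd3 was 0.09. That library was also lowest for the cell cycle list described below (summed CPM 1212). At the upper end the libraries differed, with HET replicate 4 highest for that list (2749) and HET replicate 1 highest for Mxd3. Whether Mxd3 follows that list was not tested. Mxd4 (chromosome 5, 34173883 to 34187720), associated with resting and differentiating cells, was at 87.2, 55.2, 45.3 and 36.1 CPM in HET and at 50.5, 55.2, 65.0 and 71.4 CPM in WT. HET replicate 1 was the highest of all libraries and HET replicate 4 the lowest, so that the HET range enclosed the WT range. The log2 fold change was -0.11 (standard error 0.24, adjusted p = 0.958 by edgeR, interval 0.650-fold to 1.33-fold), and its sign reversed to 0.05 without HET replicate 4. Mxd1 and Mxi1, the other two MXD genes, were low and uneven. Mxd1 (chromosome 6, 86647042 to 86669161) was at 13.8, 14.4, 3.75 and 8.80 CPM in HET and at 6.56, 10.1, 22.6 and 12.5 CPM in WT, a log2 fold change of -0.33 (standard error 0.46, adjusted p = 0.918 by edgeR, interval 0.399-fold to 1.58-fold), which became 0.08 without WT replicate 3, its highest library. Mxi1 (chromosome 19, 53310518 to 53375810) had 16 to 72 counts per library and stood at 2.97, 4.79, 10.8 and 2.43 CPM in HET and 3.71, 4.78, 4.796 and 6.16 CPM in WT. HET replicate 3 was far above the other HET libraries, and the log2 fold change of 0.10 (SE 0.53, edgeR adjusted p = 0.980, interval 0.485-fold to 2.38-fold) was -0.51 without it.

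The larger MAX-binding repressors were both lower in HET on average. Mnt (chromosome 11, 74830920 to 74845725), the broadly expressed antagonist of MYC, was at 8.36, 12.3, 11.8 and 5.61 CPM in HET and at 14.5, 12.9, 20.1 and 9.71 CPM in WT. Here 3 of 4 WT libraries lay above every HET library, and WT replicate 4 fell among the HET values. The log2 fold change of -0.58 (SE 0.36) was the most negative of the members, with an edgeR p of 0.124, an adjusted p of 0.783 and an interval of 0.392-fold to 1.13-fold. It kept its sign in all 18 alternative settings and ranged from -0.73 to -0.37 when each library was left out. Mga (chromosome 2, 119897228 to 119969581), a large protein with a T-box as well as the MAX-binding region and a subunit of a Polycomb complex, was at 62.8, 55.8, 45.7 and 36.6 CPM in HET. In WT it was at 52.5, 79.7, 54.1 and 53.9 CPM, with 3 libraries close together and replicate 2 well above them. The log2 fold change was -0.25 (standard error 0.20, adjusted p = 0.841 by edgeR, interval 0.618-fold to 1.14-fold), and -0.09 without WT replicate 2.

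Mlx and Tfap4 were both higher in HET on average, and neither passed the test. Mlx (chromosome 11, 101087277 to 101092207) was at 60.9, 61.3, 68.8 and 41.7 CPM in HET and at 56.6, 51.6, 51.0 and 43.0 CPM in WT. There 3 HET libraries lay above every WT library, and HET replicate 4 lay below all of them. The log2 fold change was 0.20 (standard error 0.18, adjusted p = 0.862 by edgeR, interval 0.878-fold to 1.51-fold), and 0.34 without HET replicate 4 (edgeR unadjusted p = 0.0625, adjusted p = 0.791, in a range of adjusted p from 0.791 to 0.976 when each library was left out). Tfap4 (chromosome 16, 4544661 to 4559854) was at 6.11, 4.79, 6.59 and 8.64 CPM in HET and at 3.61, 1.12, 7.95 and 4.59 CPM in WT. All HET libraries exceeded 3 of the WT libraries, while WT replicate 3 was second only to HET replicate 4. With 11 to 76 counts per library, its log2 fold change of 0.60 (SE 0.55, edgeR adjusted p = 0.864) had an interval from 0.672-fold to 3.41-fold, and it was 1.07 without WT replicate 3 and 0.28 without WT replicate 2.

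Several members moved as a block in 1 library. HET replicate 4 held the lowest value of 6 of the 10 members (Max, Mxi1, Mxd4, Mnt, Mga and Mlx) and the highest of Myc and Tfap4. Across 11911 tested genes with a count in every library, HET replicate 4 was lowest for 13.7% and highest for 13.7%. Its ratio of Myc to Max (15.8) and of Myc to the 6 repressors (4.16) were the highest of all 8 libraries. It also had the highest summed CPM of the 30 cell cycle genes (2749, while HET replicates 1 to 3 had 1932 to 2241) and one of the lower depths (6702397 counts). WT replicate 3 had the lowest Myc, the highest Mnt and Mxd1 and a Myc over Max of 3.07, but its Tfap4 (7.95 CPM) was second only to HET replicate 4. The part of cell cycle and depth in these values was not tested.

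The members differed in how far repeats of a pool scattered. The biological coefficient of variation (the spread beyond counting error, from edgeR's fit) was 0.196 for Mlx, 0.202 for Myc, 0.217 for Mga, 0.244 for Max, 0.249 for Mxd4 and 0.263 for Mxd3, all under the median of 0.313 over tested genes. The coefficient was 0.375 for Mnt, 0.472 for Mxd1, 0.541 for Mxi1 and 0.549 for Tfap4. The members under the median were also those with the highest mean CPM. That median covers genes of all levels, and members were not compared with genes of a similar level. Counting error is not part of this coefficient. At the mean counts, the Poisson error was 15.2% for Mxi1 and 14.7% for Tfap4, against 2.29% for Myc.

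Strand was not stated for the counting, so overlaps with other genes bear on some members. On GRCm38 (GENCODE M21), exons of Mxd4 shared 1001 bases with the antisense gene Gm42846 (45 to 241 counts per library), exons of Mlx shared 385 bases with the opposite-strand gene Psmc3ip (96 to 322 counts), exons of Mxi1 shared 194 bases with Gm10197 (1 to 11 counts) and exons of Mxd3 shared 105 bases with Prelid1 (2764 to 5266 counts). Reads from these stretches cannot be assigned to 1 of the genes without strand. Myc, Mnt, Mga and Tfap4 overlapped no other annotated gene, and Max and Mxd1 contained an intronic gene that shared no exon bases with them.

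The genes that act with the network were described from lists. The other MYC and Mondo family genes were led by Mlxip, which encodes the MLX partner MondoA and averaged 159 CPM in HET (SD 15.6, n = 4) against 154 CPM in WT (SD 5.83, n = 4). Its log2 fold change was 0.04 (adjusted p = 0.960 by edgeR). Mycl was near the detection limit at 1.69 ± 2.01 and 1.95 ± 1.74 CPM (SD, n = 4 each), and of the 4 genes listed only these 2 were tested. Txnip, a target of MondoA and MLX, averaged 461 CPM in HET (SD 35.8, n = 4) against 447 CPM in WT (SD 50.8, n = 4), with a log2 fold change of 0.04 (adjusted p = 0.958 by edgeR). The 95% interval of the log2 fold change was -0.19 to 0.27 for Mlxip and -0.17 to 0.25 for Txnip.

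Of 8 tested factors that bind E-boxes outside the network, 3 were higher and 5 lower in HET with a median log2 fold change of -0.02, and none had an unadjusted p under 0.05 in edgeR. The lowest p were those of Bhlhe40 (log2 fold change 0.35) and Usf2 (0.30) among those higher, and of Srebf2 (-0.29), a regulator of sterol synthesis, and Bhlhe41 (-0.22) among those lower. The SIN3 and HDAC corepressors, which MXD proteins and MNT recruit, were 8 higher and 5 lower (median 0.01), again with 0 of 13 at an unadjusted p under 0.05 in edgeR; Rbbp7 (0.24), Sap18 (0.15) and Arid4a (-0.25) were among those with the lowest p. The partners of MGA in its Polycomb complex were 6 higher and 4 lower (median 0.16) with 0 of 10 at that limit, with the lowest p for Tfdp1 (0.24) and Tfdp2 (0.38) among those higher and for Rnf2 (-0.06) and Cbx3 (-0.07) among those lower in HET. None of these lists held a gene that passed the adjusted threshold in edgeR or in DESeq2.

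Among 14 MYC coactivators and cofactors, 6 were higher and 8 lower (median log2 fold change -0.11). Zbtb17, which encodes MIZ1, the factor through which MYC represses genes, averaged 26.3 CPM in HET (SD 4.10, n = 4) against 41.0 CPM in WT (SD 6.92, n = 4). Its log2 fold change was -0.64 (standard error 0.21, unadjusted p = 0.00911 and adjusted p = 0.554 by edgeR). Ep400, of the TIP60 complex, was lower in every HET library than in every WT library (113 ± 19.1 against 141 ± 5.83 CPM, SD, n = 4 each). Its unadjusted p was 0.0313 and its adjusted p 0.621 by edgeR. Ruvbl2 of the same complex leaned up (log2 fold change 0.38, adjusted p = 0.667 by edgeR), as did Ruvbl1 (0.13). Of 14 regulators of MYC protein stability, 7 were higher and 7 lower (median 0.05). Set had an edgeR p of 0.0120 (log2 fold change 0.32, adjusted p = 0.571) and the deubiquitinase gene Usp36 one of 0.0321 (-0.50, adjusted p = 0.625), and the ubiquitin ligase gene Fbxw7 (-0.50) followed among those lower in HET. These 3 and 2 genes of 14 at an unadjusted p under 0.05 compare with 7.22% of all tested genes, and 0 passed the adjusted threshold in edgeR or DESeq2.

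Genes that MYC activates leaned toward higher levels in HET. Of 42 listed, 41 were tested, 35 of them higher and 6 lower in HET, with a median log2 fold change of 0.21, whereas 49.9% of all tested genes were higher. There were 10 with an unadjusted p under 0.05 in edgeR, all higher, against 3.34% of all tested genes higher and 3.88% lower at that limit. None passed the adjusted threshold in edgeR, and DESeq2 called 1, Odc1. Odc1, the first enzyme of polyamine synthesis, averaged 104 CPM in HET (SD 22.1, n = 4) against 53.6 CPM in WT (SD 15.1, n = 4), without overlap. Its log2 fold change was 0.96 (standard error 0.20), with an adjusted p of 0.217 by edgeR and 0.00530 by DESeq2. Nolc1, a nucleolar protein, followed with 0.48 (edgeR adjusted p = 0.484), and Mybbp1a (-0.22) and Slc3a2 (-0.20) had the lowest p among those lower in HET. The list was chosen with earlier results on MYC-linked genes in these libraries known, so its direction is not independent evidence. The number higher stayed at 33 to 37 when each library was left out, but the number at an unadjusted p under 0.05 was 5 without HET replicate 4, 6 without HET replicate 3, 6 without WT replicate 3, 16 without WT replicate 2 and 21 without HET replicate 1, and 2 or 3 in limma-trend on the authors' TPM. These counts under other settings were added after seeing the data. CACGTG occurred in the promoters of 10 of the 36 listed genes that could be matched (27.8%), beside the 12.2% of tested genes given above.

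**Figure D4:**
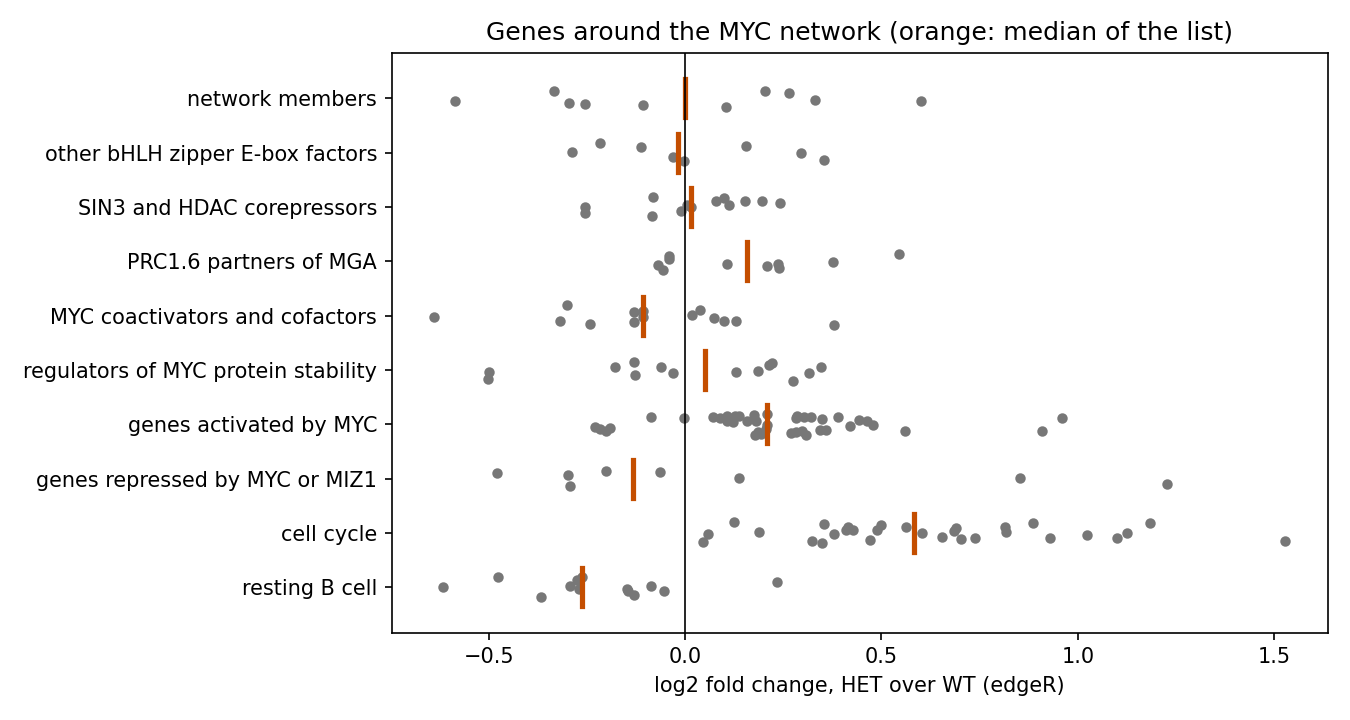
Log2 fold change of HET over WT (horizontal axis, edgeR) for each tested gene (grey points, spread vertically only for visibility) of the network and of the lists described with it, with the median of each list as an orange bar. The network members centre on 0, the genes activated by MYC on 0.21, the cell cycle genes on 0.58 and the resting B cell genes on -0.26.

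Further lists are given beside these values. They too were chosen with earlier results of these data known, so their direction is not independent evidence. All 30 cell cycle genes were higher in HET, 12 of them at an unadjusted p under 0.05 in edgeR (0 at the adjusted threshold, 2 in DESeq2), with summed CPM of 1932 to 2749 in HET and 1212 to 1841 in WT. Ccnb2, a mitotic cyclin, led with a log2 fold change of 1.53 (edgeR adjusted p = 0.0870), followed by Rrm2 (0.89). Of 13 genes of resting B cells 12 were lower, 7 at an unadjusted p under 0.05 (0 at the adjusted threshold in edgeR, 2 in DESeq2), led by Cd38 (-0.48) and Klf2 (-0.62), with Il7r (0.24) as the exception. Across all tested genes, 49.9% were higher in HET. At the unadjusted limit in edgeR, 3.34% of all tested genes were higher and 3.88% lower, and DESeq2 called 0.687% of 13834 genes. Of 8 tested genes that MYC or MIZ1 represses, 3 were higher and 5 lower (median log2 fold change -0.13). Btg1, which restrains proliferation and is also in the resting B cell list, averaged 1293 CPM in HET (SD 138, n = 4) against 1585 CPM in WT (SD 120, n = 4), without overlap. Its log2 fold change was -0.29 (unadjusted p = 0.00348 and adjusted p = 0.420 by edgeR). The CDK inhibitor gene Cdkn2c leaned up (0.85, adjusted p = 0.602 by edgeR), as did Cdkn1a (1.23) at 3.72 against 1.597 CPM, while Ndrg1 leaned down (-0.48). The number of cell cycle genes higher in HET was 27 without HET replicate 4 and 29 or 30 without any other library, and the number at an unadjusted p under 0.05 (12) fell to 6 when HET replicate 4 was left out and to 7 when WT replicate 3 was. It was 6 in each limma-trend fit on the authors' TPM and 17 in limma-voom with sample weights, settings also applied to this list after seeing the data. Whether the values of the members follow the share of dividing cells in a library was not tested.

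To describe which transcripts varied with Myc, log2 CPM of genes with a mean of at least 16 CPM were correlated with that of Myc over the 8 libraries, which come from 2 pools and share scaling and depth. The highest Pearson r were those of Pgls (0.967), Id3 (0.966), Slc25a33 (0.944), Ndufb9 (0.943) and Gusb (0.940). The lowest were those of Sun1 (-0.961), Siglecg (-0.949), Malat1 (-0.941), Lbh (-0.934) and Atp6v0d1 (-0.922). Centring each group on its mean left these coefficients between 0.918 and 0.961 for the first 5 and between -0.953 and -0.891 for the last 5. Spearman's rho was 0.786 for Pgls, 0.881 for Id3, 0.810 for Slc25a33, 0.690 for Ndufb9 and 0.476 for Gusb. It was -0.905 for Sun1 and for Malat1, -0.833 for Lbh, -0.619 for Siglecg and -0.548 for Atp6v0d1. These 10 genes were the extremes among 7228 compared, and none of the 10 passed the adjusted threshold between groups in edgeR (adjusted p from 0.612 to 0.870). Within the network, the most negative Pearson r with Myc was that of Mnt (r = -0.810, rho = -0.667). The most negative rho with Myc was that of Mga (rho = -0.786, r = -0.465). Over the same 8 libraries, the highest Pearson r of any pair of members was that of Max with Mxi1 (r = 0.845, rho = 0.905). Both genes were highest in HET replicate 3 and lowest in HET replicate 4. These are extremes picked from all pairs of the 10 members.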

How the data were processed

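The authors prepared SMART-Seq2 libraries, aligned reads to GRCm38 with Hisat2 2.2.1 and counted them per gene with HTSeq; the annotation and strand setting were not given in the sources used here. Whole read counts per gene symbol, as deposited, were the values tested, and all 8 columns were matched by name. The deposited TPM table holds the authors' TPM, used for alternatives only. HET was compared with WT across all genes in R 4.3.3 with edgeR 4.0.16 (filterByExpr, TMM, robust quasi-likelihood F-test, group as the only factor). Adjustment was by Benjamini-Hochberg over 12744 genes, with a threshold of 0.05. SEs are the absolute log2 fold change over the square root of F. DESeq2 1.42.0, which the study used, and limma 3.58.1 were alternatives, and the code was tested on simulated data. The read total limits precision: 3 counts are 0.241 to 0.455 CPM, counting error only. Positions and exon lengths are GENCODE M21's. All 10 members are named; of each list, the 2 genes with the lowest p in each direction and any past the threshold; and the 5 genes most and least like Myc. The members and lists were chosen with earlier results of these data known. Same-numbered libraries did not deviate together (r from -0.0442 to 0.0244), so numbers only name libraries. Some genes that this rule names are not reported here.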

Additional observations from a re-analysis of the deposited data

Results flagged for a closer look

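For the CPM of the 10 members and 4 ratios or shares between them, 28 sets of 4 libraries were searched for a library far from its group (gap to its neighbour over 0.829 of the group's range). The search found 2, where chance gives about 1.4. HET replicate 4 had 288.1 CPM of Myc, with HET replicates 1 to 3 at 219 to 230 CPM (gap 0.835). WT replicate 2 had 79.65 CPM of Mga, with the remaining WT values at 52.5 to 54.1 CPM (gap 0.938).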

How the results depend on the processing

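The count of members called was 0 under all 18 alternatives (10 with all libraries, 8 leaving out a library), and the lowest adjusted p of any member was 0.518. Of 177 member values under these alternatives, 170 kept their direction. The 7 that reversed were Mxi1 with the replicate block (-0.11), in limma-voom (-0.0461), in limma-trend on log2(TPM + 0.1) (-0.0959), without HET replicate 3 (-0.513) and without WT replicate 1 (-0.00855), Mxd4 without HET replicate 4 (0.054) and Mxd1 without WT replicate 3 (0.0788). With each library left out, Mxi1 ranged from -0.513 to 0.344, Mxd4 from -0.406 to 0.054 and Mxd1 from -0.56 to 0.0788. With the replicate number as a block, Myc alone had an unadjusted p under 0.05 (log2 fold change 0.369, adjusted p = 0.675 by edgeR), as had Myc without WT replicate 1 or WT replicate 4 and Max without HET replicate 3. The number of genes called, 3, was 95 in DESeq2, 38 without a filter, 7 with a mean of at least 50 counts and 0 with the replicate block and in all 3 limma-trend fits, and 1 to 6 without a library. Mxi1 and Tfap4 gave no value where a filter removed them. Mxi1 and Tfap4 had the largest counting errors of the members (15.2% and 14.7%). These were smaller than their biological coefficients of variation (0.541 and 0.549). The cause of these shifts was not tested.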
